A study of Arabidopsis thaliana with 8 samples.

Results

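The aquaporin family of Arabidopsis thaliana was followed in seedlings of rml1, a mutant named root meristemless1, beside those of its Columbia-0 wild type. Its 35 members were taken by locus code as members of the gene family, with no measured value in the rule, and all were found among 29920 measured loci. They comprise 13 plasma membrane intrinsic proteins (PIP), 10 tonoplast intrinsic proteins (TIP), 9 NOD26-like intrinsic proteins (NIP) and 3 small basic intrinsic proteins (SIP). Names are written with a hyphen, as protein databases do. Each had 1 entry in the table, and none was removed by a filter on low values. By its title, the series concerns redox control of hormone signalling in root growth. It holds 8 Affymetrix tiling arrays, each hybridised with RNA pooled from shoots or roots of seedlings aged 7 days: 3 of rml1 shoots (61, 65 and 108 shoots), 3 of wild type shoots (30 each), 1 of the rml1 root (234 roots) and 1 of the wild type root (90 roots). All seedlings grew on vertical plates of the same nitrate medium with sucrose, with no other treatment. The rml1 lesion is a point change in GSH1, the gene for glutamate-cysteine ligase, which begins glutathione synthesis, and rml1 seedlings form a root without a lasting meristem. The rml1 root is therefore a short, arrested organ, not a matched counterpart of the growing wild type root. Levels are log2 values, so a difference of 1 is a 2-fold difference. Precision is limited by the number of arrays, and the labels call the shoot samples biological replicates without saying how they were raised.

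Aquaporins are channels of biological membranes that let water, and for some members small neutral solutes, pass along a gradient. PIPs lie in the plasma membrane, where PIP1 proteins commonly need a PIP2 partner to reach the cell surface, and TIPs lie mainly in the vacuole membrane, where they serve the water exchange of expanding cells. NIPs carry solutes such as boric acid, arsenite and lactic acid, and SIPs are found in the endoplasmic reticulum. In roots, PIPs and TIPs are known for their share in the water flow from soil to xylem, and their transcripts are known to respond to drought, salt and abscisic acid. How fast cells enlarge depends on the supply of water through such channels together with the yielding of the wall.

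Shoot arrays of the same genotype correlated at 0.990 to 0.994 across all loci (Pearson's r), and no pair of arrays held the same values. Photosynthesis markers, the defining genes of green tissue, had a median level of 12.18 to 12.25 over the rml1 shoots and 12.37 to 12.52 over the wild type shoots, against 8.04 in the rml1 root and 7.61 in the wild type root. Endodermis markers, such as the CASP proteins of the Casparian strip, had medians of 6.42 in the rml1 root and 8.40 in the wild type root, against 4.78 to 5.02 over the rml1 shoots and 4.59 to 4.64 over the wild type shoots. Both lists were higher in the organ they mark. GSH1 (AT4G23100) had levels of 8.80, 8.61 and 8.96 in rml1 shoots, against 8.45, 8.19 and 8.11 in wild type shoots, and 8.97 in the rml1 root and 8.14 in the wild type root, which cannot serve as a check of the genotypes, because the lesion is a point change.

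In rml1 shoots, 14 aquaporins fell and 4 rose, while 17 did not pass the test. The falls took in most PIP1 members, 5 TIPs and the boron channel NIP6-1, and the rises were NIP1-1, NIP5-1, PIP2-5 and SIP2-1. Called loci had a limma adjusted p under 0.05 over all 29920 loci (6 shoot arrays, two-sided). That is 51.4% of the members called in either direction, beside 23.9% of all loci. By direction, 40% of members fell beside 10.6% of loci, and 11.4% rose beside 13.3%. Calls were more frequent among brighter loci, where most aquaporins lie. Among the 14960 loci with a mean above the median, fitted alone, 62.1% of the 29 aquaporins there and 49.9% of loci were called. In that fit 44.8% of the aquaporins fell beside 19.6% of loci, and 17.2% rose beside 30.2%. Of the called members, 4 fell and 2 rose at least 2-fold, where 2.17% and 2.66% of all loci did. Groups of 3 arrays did not overlap at 24 of 35 members, 17 with rml1 below and 7 with rml1 above the wild type, and at 42.1% of all loci (20.2% below and 21.9% above). In whole organs, fewer cells of a type and less RNA per cell cannot be told apart. The median log2 fold change was -0.25 over the aquaporins and -0.03 over all loci. Without rml1 shoot replicate 2 or without rml1 shoot replicate 3, 9 members fell and 3 rose. Over all 6 ways of leaving out 1 array the falls numbered 9 to 14 and the rises 3 to 4. In those 6 fits 15.1% to 21.7% of all loci were called.

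Markers of cell types that a shoot sample could hold were read from the same fit, where 13.3% of all loci rose and 10.6% fell. Of 7 photosynthesis markers 1 fell, of 6 guard cell markers 2 fell (33.3%), of 8 xylem markers 1 rose and 1 fell, and of 6 pollen markers 1 fell. Guard cell markers had medians of 4.87 to 5.28 over the rml1 shoots and 5.01 to 5.23 over the wild type shoots, and xylem markers 3.60 to 3.69 and 3.55 to 3.82 in the same order. Of the root lists, 2 of 8 endodermis markers rose and 2 of 8 root hair markers fell in rml1 shoots. Their part in the aquaporin values was not tested.

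**Figure D1:**
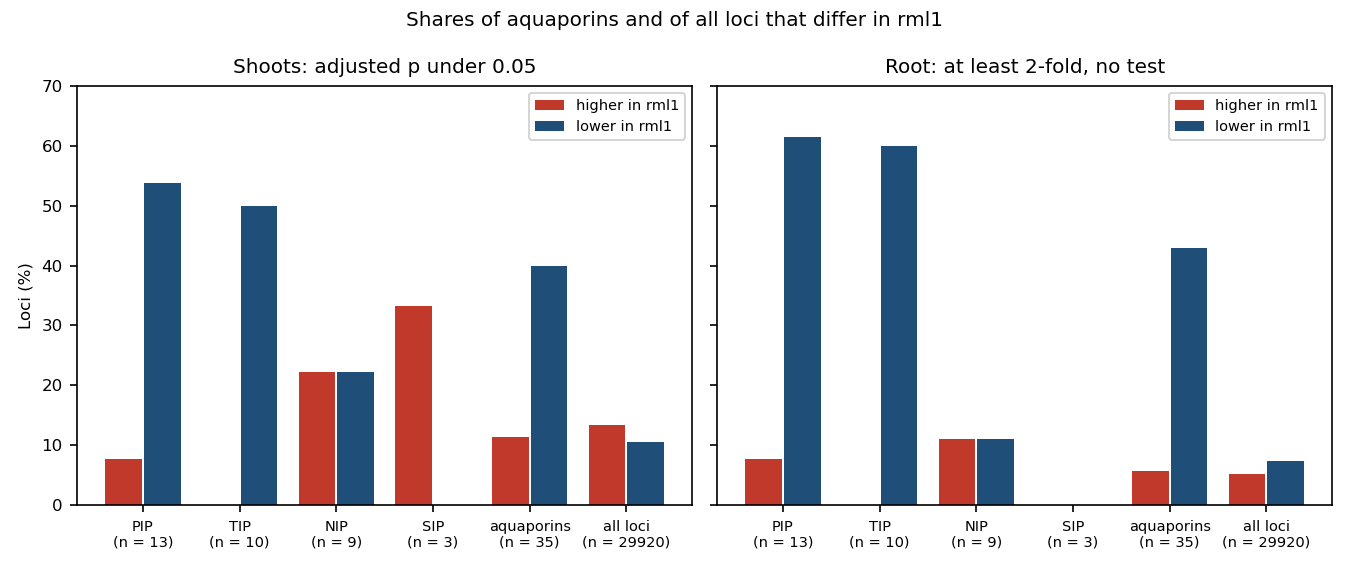
Percent of loci higher (red) and lower (blue) in rml1 than in the wild type, for each aquaporin subfamily, all 35 aquaporins and all 29920 loci. Left, shoots at an adjusted p under 0.05 (3 arrays each); right, roots at a difference of at least 2-fold (1 array each, no test). The share of lower loci was 40% of aquaporins in shoots and 42.9% in the root, against 10.6% and 7.33% of all loci.

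PIP1 members, the partners that depend on PIP2 proteins, fell in rml1 shoots at 4 of 5 genes (80%, beside 10.6% of all loci). PIP1-5 (AT4G23400) had levels of 9.16, 9.09 and 9.26 in rml1 shoots, against 10.92, 10.52 and 10.72 in wild type shoots, without overlap. It fell by 1.55 (SE 0.12, adjusted p = 0.000408), which makes it 2.92-fold lower in rml1. PIP1-3 (AT1G01620) had 10.02, 9.91 and 9.82 in rml1 shoots, against 11.14, 10.81 and 10.79 in wild type shoots, and fell by 0.99 (SE 0.12, adjusted p = 0.00168). Both of these calls held without any 1 array. PIP1-1 (AT3G61430) had 10.81, 10.64 and 10.73 in rml1 shoots, against 11.33, 11.08 and 11.12 in wild type shoots, and PIP1-4 (AT4G00430) had 10.30, 10.11 and 10.35 in rml1 shoots, against 10.65, 10.54 and 10.59 in wild type shoots. All rml1 values of these genes lay below all wild type values, by a smaller margin. PIP1-1 fell by 0.45 (SE 0.10, adjusted p = 0.0197), and PIP1-4 fell by 0.34 (SE 0.10, adjusted p = 0.0435). The PIP1-1 call was lost without rml1 shoot replicate 2 (adjusted p = 0.0593) or without rml1 shoot replicate 3 (0.0632). The PIP1-4 call was lost with each array left out (adjusted p 0.0682 without rml1 shoot replicate 3 to 0.105 without rml1 shoot replicate 2). It was also lost with arrays centred on their medians (0.0576) and with the replicate number as a block (0.083). PIP1-2 (AT2G45960), known for its part in leaf carbon dioxide and root water transport, went the other way, with 11.52 to 11.60 over the rml1 shoots and 11.17 to 11.46 over the wild type shoots, and did not pass (log2 0.26, SE 0.10, adjusted p = 0.107).

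Root levels of all 5 PIP1 genes were lower in the rml1 array than in the wild type array, as were 15339 of 29920 loci. PIP1-3 had 7.93 in the rml1 root and 11.28 in the wild type root, a log2 difference of -3.35, or 10.2-fold lower in rml1. PIP1-5 had 7.96 in the rml1 root and 10.20 in the wild type root (log2 -2.24). PIP1-1 had 10.67 in the rml1 root and 12.02 in the wild type root (log2 -1.35). The remaining PIP1 members differed by less than 2-fold, PIP1-4 with 8.88 in the rml1 root and 9.70 in the wild type root (log2 -0.82) and PIP1-2 with 10.98 in the rml1 root and 11.68 in the wild type root (log2 -0.70). PIP1-3 and PIP1-5 thus had the largest differences of the PIP1 group in the root as in the shoot, in arrays that the comparisons do not share. Each of the PIP1 entries other than PIP1-5, and that of PIP2-1, carried the suffix X, which in this table went with loci of more than 1 RefSeq transcript (99.2% of such loci, against 24.5% of loci with suffix 0). Which transcripts these values count was not analysed here.

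PIP2 members, the water channels that reach the plasma membrane by themselves, moved less evenly in shoots, with 3 falling, 1 rising and 4 not passing. The shares were 37.5% falling and 12.5% rising, beside 10.6% and 13.3% of all loci. PIP2-3 (AT2G37180), also known as the desiccation-responsive gene RD28, had 5.93, 5.75 and 5.93 in rml1 shoots, against 7.0, 6.88 and 6.58 in wild type shoots. It fell by 0.95 (SE 0.13, adjusted p = 0.0025), with every rml1 array below every wild type array. Its neighbour on the chromosome PIP2-2 (AT2G37170), with no gene between them, had 8.11, 8.14 and 7.58 in rml1 shoots, against 8.32, 8.40 and 8.17 in wild type shoots, also apart but without passing (log2 -0.35, SE 0.16, adjusted p = 0.169). The genes are close relatives, so probes may respond to both, which was not tested. PIP2-6 (AT2G39010), a member of aerial tissue, had 9.85, 9.92 and 9.95 in rml1 shoots, against 10.50, 10.36 and 10.29 in wild type shoots, and fell by 0.48 (SE 0.09, adjusted p = 0.00951). PIP2-4 (AT5G60660), a root member, was low in shoots, with 4.71, 4.60 and 4.63 in rml1 shoots, against 5.0, 5.0 and 5.29 in wild type shoots. It fell by 0.45 (SE 0.11, adjusted p = 0.0231). The call was lost without rml1 shoot replicate 1 (0.055), rml1 shoot replicate 2 (0.0653) or rml1 shoot replicate 3 (0.0761). It was also lost without wild type shoot replicate 3 (0.0534) or with the replicate number as a block (0.0574).

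PIP2-5 (AT3G54820) was the only PIP that rose in rml1 shoots. Its levels were 7.03, 7.02 and 7.09 in rml1 shoots, against 6.53, 6.56 and 6.82 in wild type shoots, without overlap (log2 0.41, SE 0.10, adjusted p = 0.0295). The call was lost with each array left out other than wild type shoot replicate 3. Adjusted p was 0.0634 without rml1 shoot replicate 2, 0.073 without wild type shoot replicate 1 and 0.0812 without rml1 shoot replicate 1. It was 0.0887 without wild type shoot replicate 2 and 0.097 without rml1 shoot replicate 3. Quantile normalization of the shoot arrays (0.0888) and the replicate number as a block (0.0561) also lost the call. PIP2-1 (AT3G53420), a channel of root and rosette water transport and of guard cells, ranged from 11.60 to 11.78 over the rml1 shoots and from 11.74 to 12.12 over the wild type shoots, with overlap (log2 -0.20, SE 0.12, adjusted p = 0.285). PIP2-7 (AT4G35100) had 10.74, 10.71 and 10.69 in rml1 shoots, against 11.07, 10.94 and 10.76 in wild type shoots (log2 -0.21, SE 0.10, adjusted p = 0.194), and PIP2-8 (AT2G16850) had 5.59, 5.76 and 5.73 in rml1 shoots, against 5.55, 5.94 and 5.99 in wild type shoots (log2 -0.13, SE 0.14, adjusted p = 0.519). Neither passed, and only the groups of PIP2-7 lay apart.

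In the root the PIP2 group spread widely, with 5 of 8 members at least 2-fold lower in rml1 and 1 at least 2-fold higher. The shares were 62.5% and 12.5%, beside 7.33% and 5.25% of all loci. PIP2-4 had the largest difference, with 5.64 in the rml1 root and 9.33 in the wild type root (log2 -3.68, 12.9-fold lower). PIP2-3 had 6.31 in the rml1 root and 8.90 in the wild type root (log2 -2.59) and PIP2-2 had 8.76 in the rml1 root and 10.74 in the wild type root (log2 -1.98). PIP2-7, with 8.29 in the rml1 root and 10.34 in the wild type root (log2 -2.05), and PIP2-8, with 3.28 in the rml1 root and 5.19 in the wild type root (log2 -1.91), were lower by about as much, although neither passed in shoots. The rml1 root value of PIP2-8 lay below the median of that array, 3.95. PIP2-1 differed less, with 11.76 in the rml1 root and 12.47 in the wild type root (log2 -0.72). On the other side, PIP2-6 had 7.01 in the rml1 root and 5.79 in the wild type root (log2 1.22) and PIP2-5 had 6.70 in the rml1 root and 5.73 in the wild type root (log2 0.97). PIP2-6 was therefore lower in rml1 in the shoot and higher in the root, while PIP2-5 was higher in both.

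**Figure D2:**
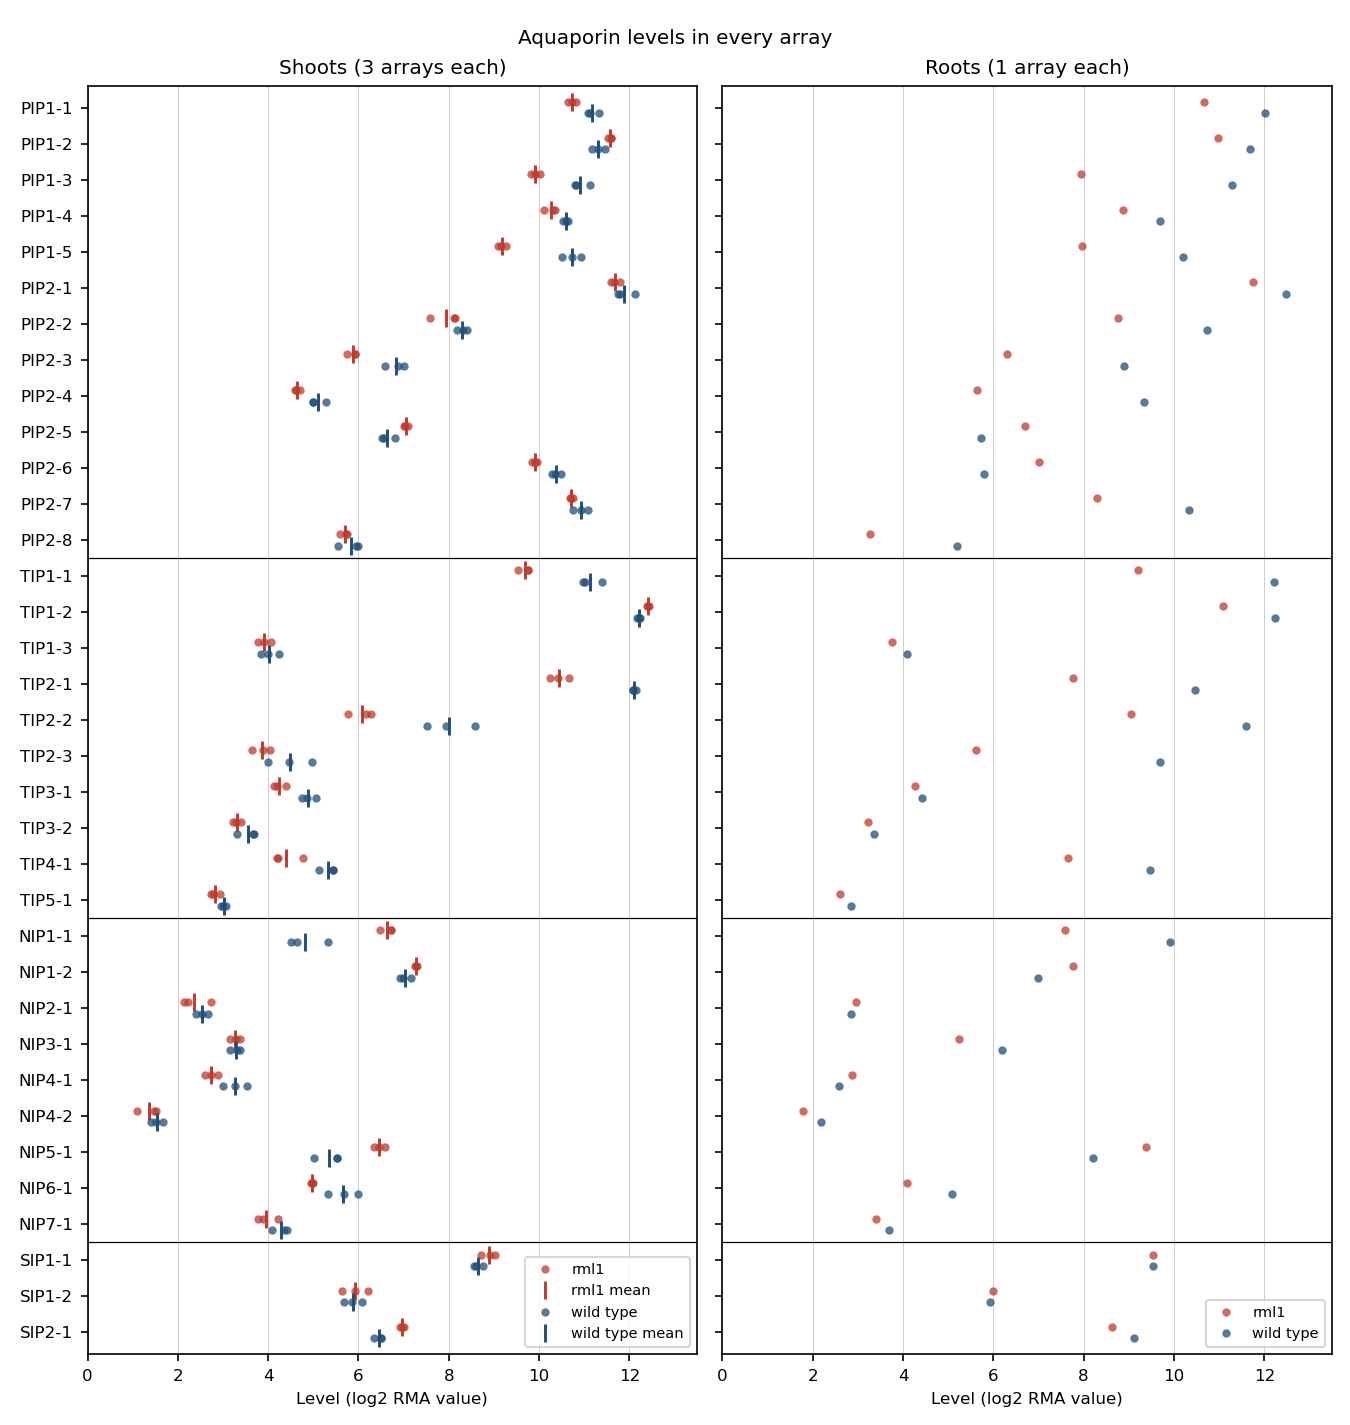
Level of each aquaporin in every array (log2 RMA value), with shoots left (points, arrays; bars, group means, n = 3 each) and roots right (1 array each), rml1 in red above the wild type in blue. Rows are ordered by subfamily, and levels should be compared along a row only, since each gene has its own probes. In shoots all rml1 points of TIP2-1, TIP1-1 and PIP1-5 lie below all wild type points, and their single rml1 root points are lower too. NIP1-1 lies above the wild type in rml1 shoots and below it in the rml1 root.

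TIPs, the channels of the vacuole membrane, had 5 members that fell in rml1 shoots, 5 that did not pass and 0 that rose in the limma fit. Falls thus made up 50% of TIPs, beside 10.6% of all loci, while 13.3% of all loci rose. At an unadjusted p under 0.05, 1 member, TIP1-2, was higher in rml1. TIP2-2 (AT4G17340) had the largest fall of the family, with 6.17, 5.77 and 6.27 in rml1 shoots, against 8.58, 7.51 and 7.94 in wild type shoots. It fell by 1.94 (SE 0.27, adjusted p = 0.00274), or 3.83-fold, and its wild type arrays were the most spread. TIP2-1 (AT3G16240), also called delta-TIP, carries water and ammonia, and had 10.41, 10.66 and 10.25 in rml1 shoots, against 12.14, 12.07 and 12.08 in wild type shoots. It fell by 1.66 (SE 0.12, adjusted p = 0.000298), 3.16-fold, with the wild type arrays close together. TIP1-1 (AT2G36830), or gamma-TIP, is known from the large vacuole of elongating cells, and had 9.75, 9.76 and 9.53 in rml1 shoots, against 11.40, 11.01 and 10.97 in wild type shoots (log2 -1.44, SE 0.14, adjusted p = 0.000722). TIP4-1 (AT2G25810), a TIP of roots, had 4.78, 4.23 and 4.20 in rml1 shoots, against 5.43, 5.43 and 5.12 in wild type shoots, and fell by 0.93 (SE 0.18, adjusted p = 0.0102). These calls held without any 1 array.

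The closest relative of TIP1-1 lay on the other side in shoots. TIP1-2 (AT3G26520) had 12.41, 12.38 and 12.43 in rml1 shoots, against 12.20, 12.24 and 12.18 in wild type shoots, with rml1 above the wild type in every array but without passing (log2 0.20, SE 0.08, adjusted p = 0.108). TIP2-3 (AT5G47450), the root relative of TIP2-2, had 4.04, 3.88 and 3.65 in rml1 shoots, against 3.99, 4.46 and 4.97 in wild type shoots, with overlap (log2 -0.62, SE 0.24, adjusted p = 0.111). It passed without wild type shoot replicate 1 (adjusted p = 0.0261). TIP3-1 (AT1G73190), the alpha-TIP of protein storage vacuoles in seeds, had 4.40, 4.19 and 4.12 in rml1 shoots, against 4.75, 4.85 and 5.05 in wild type shoots, and fell by 0.65 (SE 0.12, adjusted p = 0.00823). Seed maturation markers had medians of 2.72 to 2.87 over the rml1 shoots and 3.0 to 3.25 over the wild type shoots, with 1 of 10 falling, and their part in the TIP3-1 value was not tested. The other seed member, TIP3-2 (AT1G17810), and the pollen members TIP1-3 (AT4G01470) and TIP5-1 (AT3G47440) lay between 2.61 for TIP5-1 in the rml1 root and 4.24 for TIP1-3 in wild type shoots, and did not pass (log2 -0.25, -0.11 and -0.20 in that order). TIP3-2 and TIP5-1 were below the median of all 8 arrays and TIP1-3 of 3. TIP3-2 passed without wild type shoot replicate 1 (adjusted p = 0.0478).

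All 10 TIPs had a lower value in the rml1 root array than in the wild type root array, 6 of them at least 2-fold. Lower values were found at 15339 of all 29920 loci, and at least 2-fold lower ones at 7.33%. TIP2-3 had the largest difference of all aquaporins, with 5.61 in the rml1 root and 9.69 in the wild type root (log2 -4.09, 17-fold). TIP1-1 had 9.21 in the rml1 root and 12.21 in the wild type root (log2 -3.0), and TIP2-1 had 7.77 in the rml1 root and 10.47 in the wild type root (log2 -2.69). TIP2-2 had 9.04 in the rml1 root and 11.61 in the wild type root (log2 -2.56) and TIP4-1 had 7.64 in the rml1 root and 9.48 in the wild type root (log2 -1.84). The TIPs of vegetative tissue made up all 6 of these, since TIP1-2 joined them in the root with 11.08 in the rml1 root and 12.24 in the wild type root (log2 -1.16). The seed and pollen members differed by -0.14 for TIP3-2, -0.16 for TIP3-1, -0.23 for TIP5-1 and -0.35 for TIP1-3.

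NIPs, the solute channels, had 2 members rising, 2 falling and 5 not passing in shoots. That is 22.2% each way, beside 13.3% of all loci rising and 10.6% falling, and both falls lost their call in some fits with 1 array left out. NIP1-1 (AT4G19030), which lets arsenite into roots, had 6.72, 6.49 and 6.72 in rml1 shoots, against 4.50, 5.32 and 4.64 in wild type shoots. It rose 3.53-fold (log2 1.82, SE 0.21, adjusted p = 0.00139), the largest rise of the family, and no rml1 array overlapped the wild type. In the root the order turned round, with 7.58 in the rml1 root and 9.91 in the wild type root (log2 -2.33, 5.03-fold lower in rml1). NIP5-1 (AT4G10380), the boric acid channel that takes up boron in roots under low supply, had 6.33, 6.45 and 6.59 in rml1 shoots, against 5.01, 5.52 and 5.52 in wild type shoots (log2 1.11, SE 0.16, adjusted p = 0.00303). Its root levels were 9.38 in the rml1 root and 8.20 in the wild type root (log2 1.18), so it was the only member that rose in shoots and was at least 2-fold higher in the rml1 root as well.

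NIP6-1 (AT1G80760), which moves boric acid toward young shoot tissue, went the other way from NIP5-1. Its levels were 4.97, 4.99 and 4.95 in rml1 shoots, against 5.99, 5.68 and 5.33 in wild type shoots, and it fell by 0.70 (SE 0.16, adjusted p = 0.0204). Its root levels were 4.09 in the rml1 root and 5.08 in the wild type root (log2 -1.0 when rounded, just under a 2-fold difference). The shoot call was lost without rml1 shoot replicate 1 (adjusted p = 0.0611), rml1 shoot replicate 2 (0.0529), rml1 shoot replicate 3 (0.0677) or wild type shoot replicate 2 (0.0583). NIP4-1 (AT5G37810), a pollen member below the median of every array, had 2.88, 2.74 and 2.60 in rml1 shoots, against 3.53, 3.0 and 3.27 in wild type shoots. Its root levels were 2.86 in the rml1 root and 2.58 in the wild type root. Its shoot value (log2 -0.52, SE 0.15, adjusted p = 0.0446) was lost with each array left out other than wild type shoot replicate 2 (adjusted p 0.068 without rml1 shoot replicate 1, 0.09 without wild type shoot replicate 1, 0.0989 without rml1 shoot replicate 2, 0.107 without wild type shoot replicate 3 and 0.141 without rml1 shoot replicate 3), with quantile normalization (0.0893), with centring (0.0511), with array weights (0.0702) and over entries of suffix 0 alone (0.051). Pollen markers had medians of 2.59 to 2.79 over the rml1 shoots and 2.82 to 2.96 over the wild type shoots. NIP4-2 (AT5G37820), the next gene on the chromosome, lay below the lower quartile of all 8 arrays, with 1.10 to 1.51 over the rml1 shoots and 1.4 to 1.67 over the wild type shoots, and did not pass (log2 -0.17, SE 0.14).

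NIP3-1 (AT1G31885), a NIP of roots, did not differ between genotypes in shoots beyond its error, with 3.15, 3.38 and 3.29 in rml1 shoots, against 3.16, 3.32 and 3.38 in wild type shoots (log2 -0.01, SE 0.10). Its root levels were 5.23 in the rml1 root and 6.19 in the wild type root (log2 -0.96). NIP3-1 was below the median in 6 of the 8 arrays. NIP1-2 (AT4G18910), a relative of NIP1-1 that takes up aluminium as its malate complex, had 7.25 to 7.31 over the rml1 shoots and 6.93 to 7.17 over the wild type shoots (log2 0.25, SE 0.09, adjusted p = 0.101), and 7.77 in the rml1 root and 6.99 in the wild type root. In the root it lay on the other side from NIP1-1. NIP2-1 (AT2G34390), the lactic acid channel of hypoxic roots, was below the median of every array, with 2.13 to 2.73 over the rml1 shoots and 2.40 to 2.66 over the wild type shoots (log2 -0.17 with SE 0.17 in shoots and 0.12 in the root). NIP7-1 (AT3G06100), the boron channel of developing anthers, had 3.76 to 4.23 over the rml1 shoots and 4.08 to 4.42 over the wild type shoots and did not pass (log2 -0.32 with SE 0.15 in shoots and -0.30 in the root).

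Of the SIPs, SIP2-1 (AT3G56950) rose in rml1 shoots, with 7.0, 6.92 and 6.96 in rml1 shoots, against 6.49, 6.49 and 6.35 in wild type shoots (log2 0.52, SE 0.09, adjusted p = 0.00549). In the root it had 8.63 in the rml1 root and 9.11 in the wild type root (log2 -0.48), under 2-fold. SIP1-1 (AT3G04090) had 8.71 to 9.03 over the rml1 shoots and 8.56 to 8.75 over the wild type shoots and did not pass (log2 0.25, SE 0.11). SIP1-2 (AT5G18290) did not pass either, with 5.64 to 6.22 over the rml1 shoots and 5.68 to 6.07 over the wild type shoots (log2 0.05, SE 0.17). The groups of both overlapped. Their root differences were 0.02 and 0.07 in the same order, the smallest of the family.

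**Figure D3:**
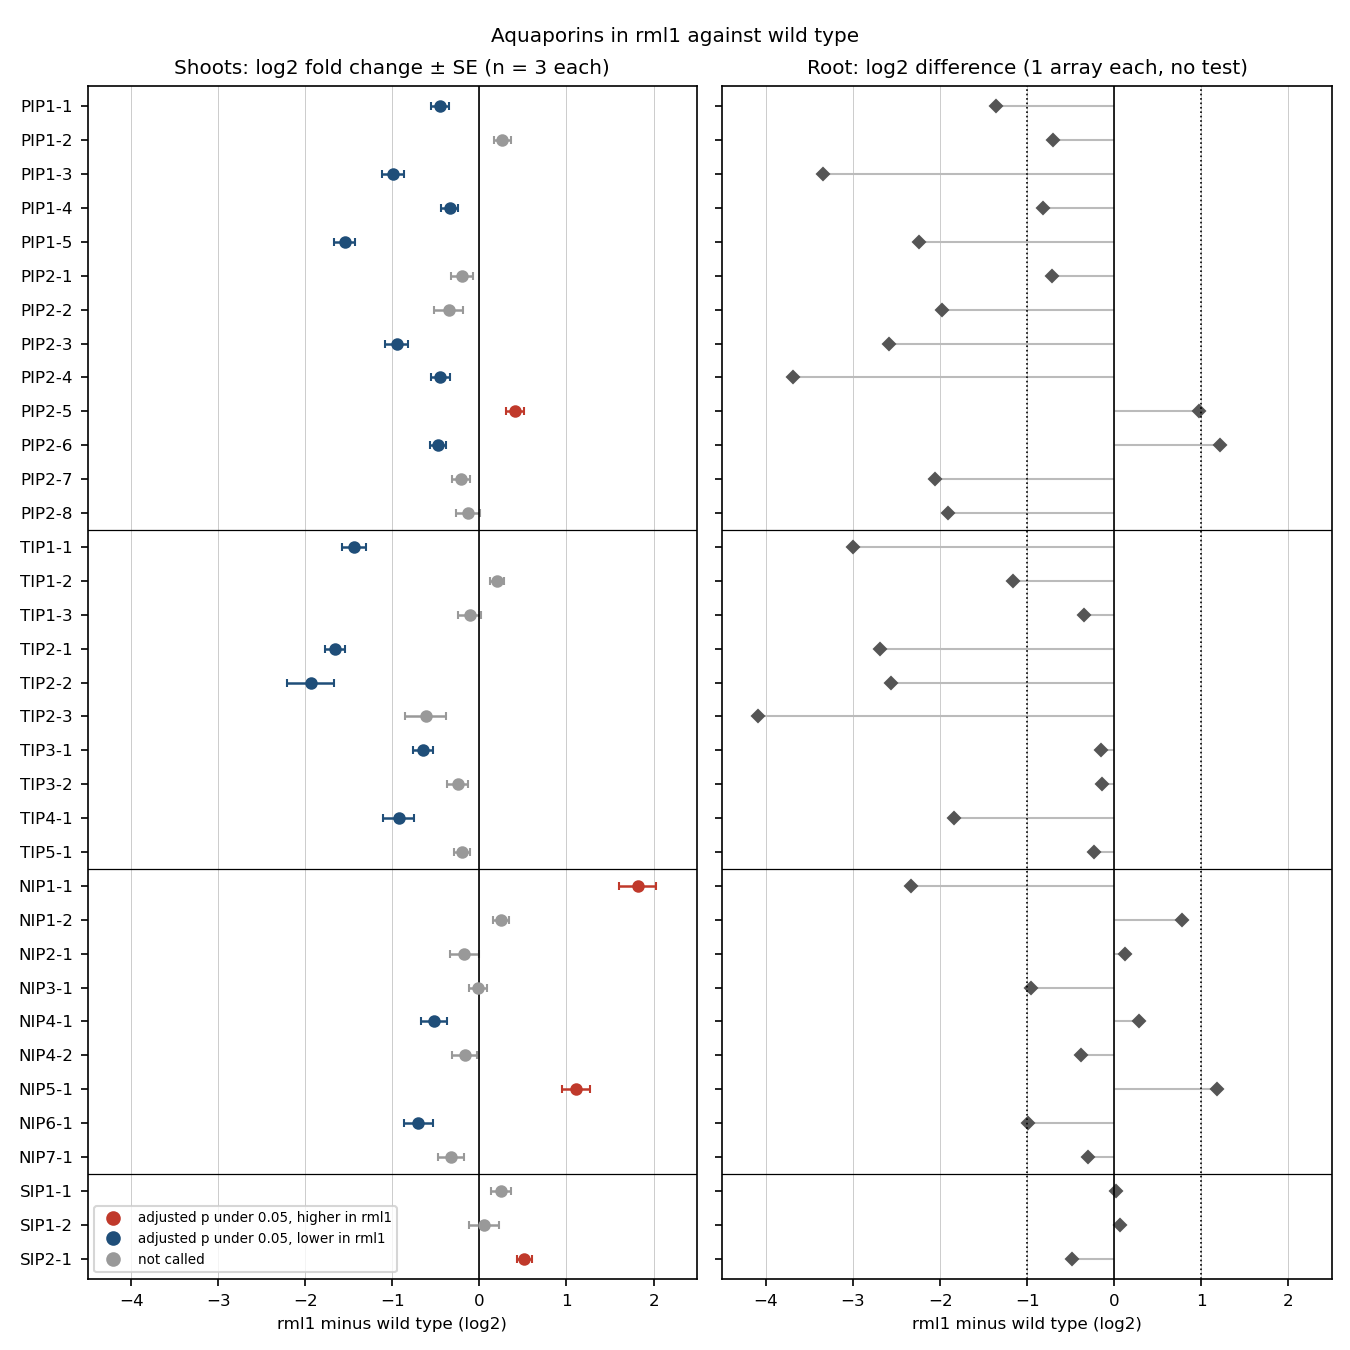
Difference between rml1 and the wild type for each aquaporin (log2). Left, shoots, with the SE of the limma fit (n = 3 arrays each) and colour for calls at an adjusted p under 0.05; right, roots, 1 array each, with dotted lines at 2-fold. Falls in shoots numbered 7 of 13 PIPs, 5 of 10 TIPs, 2 of 9 NIPs and 0 of 3 SIPs, beside 10.6% of all loci. NIP1-1 is the member with large values of opposite sign.

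Over the whole family the root contrast went mostly one way. With 1 array per genotype it has no replicate error and no test. At least 2-fold lower in the rml1 root were 15 of 35 members (42.9%, beside 7.33% of all loci), at least 2-fold higher were 2 (5.71%, beside 5.25%), and 18 differed by less. Among the 14960 loci with a mean above the median over all arrays, 51.7% of 29 aquaporins and 9.16% of loci were at least 2-fold lower. The median difference was -0.82 over the aquaporins and -0.01 over all loci. Values below 0 numbered 27 of 35 members and 15339 of all 29920 loci. By subfamily the median was -1.91 for PIPs, -1.50 for TIPs, -0.30 for NIPs and 0.02 for SIPs. In the same arrays, 7 of 8 endodermis markers were at least 2-fold lower in the rml1 root, with the medians given above. Of 8 xylem markers 6 were at least 2-fold lower, with a median level of 3.39 in the rml1 root and 5.04 in the wild type root. Of 8 root hair markers 2 were, with medians of 5.75 and 5.84 in the same order. Of 7 photosynthesis markers 1 was at least 2-fold higher and 0 at least 2-fold lower in the rml1 root (median difference 0.53). Of 6 guard cell markers 0 passed 2-fold in either direction (median difference -0.02). The part of these cell types in the aquaporin values was not tested.

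Shoot and root comparisons used separate arrays. The roots in each root pool equal in number the shoots of that genotype over its 3 pools, so both organs may come from the same seedlings. Of the 14 aquaporins that fell in shoots, 9 were at least 2-fold lower in the rml1 root. These were PIP1-1, PIP1-3, PIP1-5, PIP2-3, PIP2-4, TIP1-1, TIP2-1, TIP2-2 and TIP4-1, and they make up 9 of the 15 root members. The other members of the root group, PIP2-2, PIP2-7, PIP2-8, TIP1-2 and TIP2-3, did not pass in shoots, and NIP1-1 rose there. How many of all loci that fell in shoots were also at least 2-fold lower in the root is not given here. The 9 of 14 therefore have no background beside them. Across the 35 members, Pearson's r between the shoot and the root value was 0.48 and Spearman's rho 0.54, against 0.36 and 0.32 across all loci. The sign was the same at 28 of 35 members (80%) and at 61.8% of all loci. Members of a family are not independent, and these figures describe the arrays without a test.

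A root set of aquaporins was named by a 2-fold cut between the organs of the wild type. TIP1-1 (log2 1.09) lay just inside that cut, and SIP1-1 (0.89) and PIP1-1 (0.85) just outside. In the wild type root 11 members were at least 2-fold above the mean of the wild type shoots (31.4%, beside 13.8% of all loci) and 2 at least 2-fold below it (5.71%, beside 9.98%), with no replicate of the root. Among loci above the median, 34.5% of aquaporins and 19.3% of loci were in the first group. The root set held PIP2-2, PIP2-3, PIP2-4, TIP1-1, TIP2-2, TIP2-3, TIP4-1, NIP1-1, NIP3-1, NIP5-1 and SIP2-1. TIP2-3 had the largest difference, with 9.69 in the wild type root against 3.99 to 4.97 over the wild type shoots (log2 5.22). NIP1-1 followed (log2 5.09), then PIP2-4 (log2 4.23), TIP4-1 (log2 4.15) and TIP2-2 (log2 3.60). The most shoot-weighted member was PIP2-6, with 5.79 in the wild type root against 10.29 to 10.50 over the wild type shoots (log2 -4.60), and TIP2-1 was the other (log2 -1.63). With arrays centred on their medians, which shifts the median of all loci by -0.13, the counts were 10 above and 4 below, and with quantile normalization of the 8 arrays 12 above and 4 below.

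Fewer members were at least 2-fold above the shoots in the root within rml1 than within the wild type, where 11 were, beside 13.8% of all loci. In either direction, 13 members passed 2-fold in the wild type. The difference between genotypes was not tested. In rml1, 6 members were at least 2-fold above the shoots in the root (17.1%, beside 10.6% of all loci) and 8 at least 2-fold below (22.9%, beside 9.5%). Together these were 14 members, or 40% beside 20.1%. Among loci above the median, 17.2% of aquaporins and 14.5% of loci were above the shoots, and 27.6% and 17.8% were below. All 6 belonged to the wild type root set of 11: TIP4-1 (log2 3.24), TIP2-2 (2.97), NIP5-1 (2.92), NIP3-1 (1.96), TIP2-3 (1.75) and SIP2-1 (1.67). Of the remaining root set, PIP2-4 (0.99) and NIP1-1 (0.94) lay just short of 2-fold, PIP2-2 (0.81) and PIP2-3 (0.44) were further below it, and TIP1-1 had the opposite sign (-0.47). The root set was picked by its high values in the 1 wild type root array, so smaller values in rml1 cannot be read as a loss. NIP5-1 kept nearly the same organ difference, 2.92 in rml1 and 2.85 in the wild type. The 8 members at least 2-fold lower in the rml1 root than in rml1 shoots were PIP2-6 (-2.90), TIP2-1 (-2.66), PIP2-7 (-2.43), PIP2-8 (-2.41), PIP1-3 (-1.99), PIP1-4 (-1.38), TIP1-2 (-1.33) and PIP1-5 (-1.21), of which PIP2-6 and TIP2-1 were also the wild type's shoot members. The root minus shoot difference was lower in rml1 than in the wild type at 25 of 35 aquaporins (71.4%) and at 49.4% of all loci. The median of that change was -0.62 for aquaporins and 0.01 for all loci. That change equals the root difference between genotypes minus the shoot change, so it adds no independent values. Across members, Pearson's r between the organ differences of rml1 and of the wild type, which share no arrays, was 0.80, and across all loci it was 0.81.

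**Figure D4:**
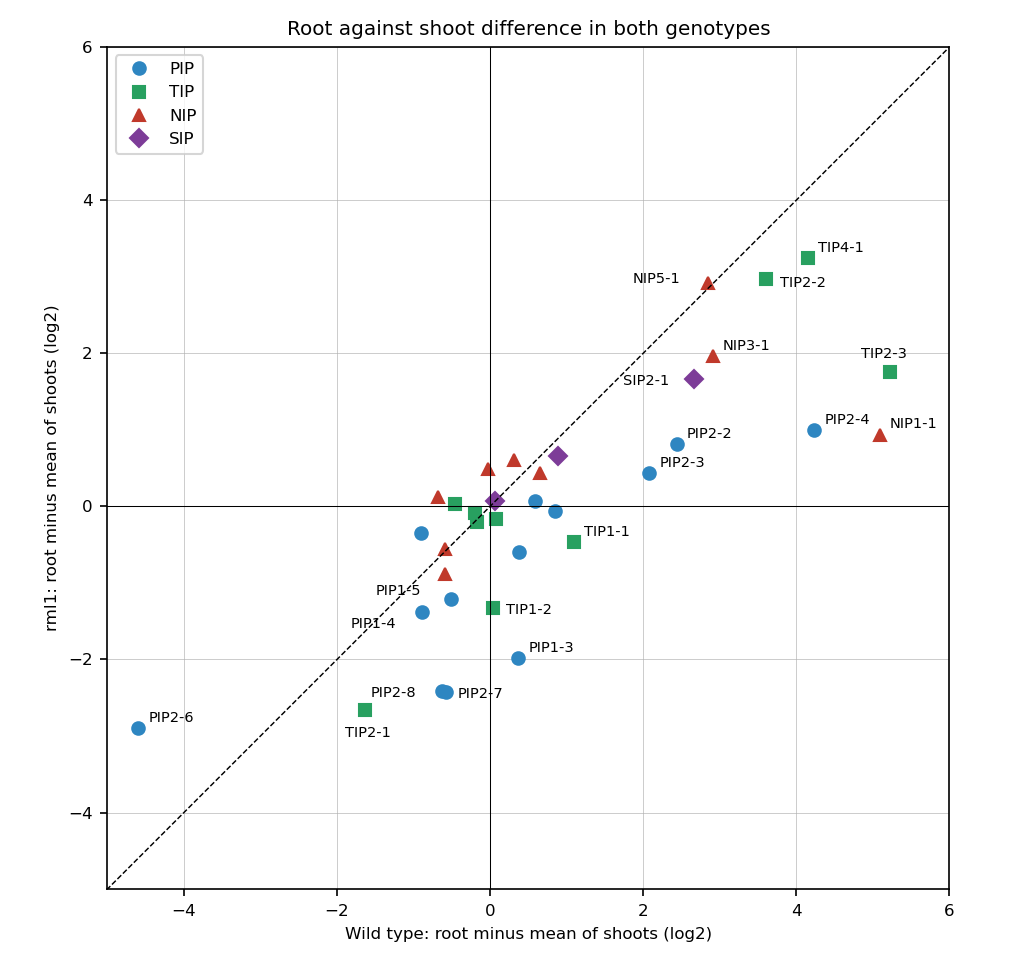
Root minus mean shoot level (log2) of each aquaporin in rml1 (vertical) against the wild type (horizontal), by subfamily, each from 1 root and 3 shoot arrays. The dashed line marks equal differences, and names are given for members at least 2-fold apart in either genotype. Most named members lie below the line, with TIP2-3, NIP1-1 and PIP2-4 farthest to the right of it, and NIP5-1 lies on it.

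Lists of genes that work beside aquaporins were read from the same fit, with 13.3% of all loci rising and 10.6% falling. Of 11 plasma membrane proton pumps, which energise solute uptake, 2 rose (18.2%) and 0 fell in rml1 shoots, led by AHA1 (log2 0.84, SE 0.12, adjusted p = 0.00274), and their median was -0.03. At an unadjusted p under 0.05 in the same limma fit, 0 pumps were lower in rml1. Of 14 genes of the vacuolar proton pumps, 4 rose (28.6%) and 1 fell (7.14%; median 0.25), with the largest rise at VHA-A2 (log2 0.76, SE 0.10). VHA-E3 fell by 0.80 (SE 0.21, adjusted p = 0.0325). VHA-E3 was also the one vacuolar pump gene at least 2-fold lower in the rml1 root (log2 -2.61). Among 8 proteins of aquaporin trafficking and control, 3 rose (37.5%) and 1 fell (12.5%), with a median of 0.29. SYP121, a syntaxin that delivers PIPs to the plasma membrane, led the rises (log2 0.40, SE 0.11), and PATL1, a lipid-binding protein of membrane traffic, fell by 0.99 (SE 0.09, adjusted p = 0.000669).

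Boron exporters, the BOR proteins that load boron onward after uptake through NIPs, had 2 of 7 members rising (28.6%) and 0 falling in rml1 shoots in the limma fit (median -0.14). At an unadjusted p under 0.05, 1 exporter, BOR6, was lower in rml1. BOR5 had the largest rise, with 5.70, 4.64 and 5.88 in rml1 shoots, against 3.65, 3.25 and 3.36 in wild type shoots (log2 1.99, SE 0.31, adjusted p = 0.00437). Its rml1 shoot replicate 2 was lower than the other 2 rml1 arrays but above all wild type arrays. In the root BOR2 was the one exporter at least 2-fold higher in rml1, with 8.10 in the rml1 root and 7.09 in the wild type root, on the same side as NIP5-1. BOR2 and BOR6 were picked out after their values were seen.

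Osmotic and abscisic acid response genes, with 19 measured, were split in shoots, where 6 rose (31.6%) and 2 fell (10.5%) at a median of -0.06. None of these list counts was tested against the other loci. RD20 had the largest rise (log2 1.55, SE 0.15, adjusted p = 0.000785) and COR47, a dehydrin, fell by 2.11 (SE 0.17, adjusted p = 0.000453). In the root 5 were at least 2-fold higher in rml1 (26.3%, beside 5.25% of all loci). At least 2-fold lower were 3 (15.8%, beside 7.33%). The list thus had members on each side in both organs.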

How the data were processed

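RNA from shoots and roots of rml1 and wild type seedlings was measured on 8 Affymetrix tiling arrays. Per the submitters' processing notes and the file, the deposited values are RMA expression on a log2 scale, with 1 column per array. RMA corrects background, equalises the distributions of the arrays and summarises probes, and it tends to compress the differences of dim genes. Not given in the sources used here are the RMA version, the build and the rule that set probes to loci. The table held 30237 entries, and entries of 1 locus were averaged, which left 29920 loci, 208 of them with more than 1 entry. Gene names and gene order came from the RefSeq table of TAIR10.1, which listed 35 of 35 members.

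Shoots of rml1 were compared with wild type shoots in limma 3.58.1 (R 4.3.3; lmFit and eBayes, 6 arrays, 3 per genotype) without a filter, with Benjamini-Hochberg adjustment over all loci and a threshold of 0.05. Roots had 1 array per genotype, so root and organ comparisons have no test and are given past 1 log2 unit. Arrays give no read depth. Their number limits the precision. Figures were drawn with matplotlib 3.10.9. Replicate numbers were not treated as pairs: deviations from the group mean of same-numbered shoot arrays correlated at -0.03, -0.00 and -0.10.

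The members and lists were chosen with earlier results of these data known. Values in every array are given for members that were called in shoots or that passed 1 log2 unit in a root or organ comparison, and ranges for the rest. From each list of related genes, the called members with the largest rise and fall are named. Alternatives covered normalization, a filter on low loci, moderation, array weights, the arrays fitted, a replicate block, the entries used, the fold threshold and each shoot array left out. The filter on low loci for roots and organs was added after seeing the data.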

Additional observations from a re-analysis of the deposited data

Results flagged for a closer look

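For 6 aquaporins every rml1 shoot array lay on one side of the wild type shoots and the rml1 root array lay on the other side of the wild type root. The difference between the organs was not tested, since each root group is 1 array. Shoot groups lay apart at 42.1% of all loci, and the shoot and root signs were the same at 61.8%. The share of all loci that meet both conditions is not given here, so 6 of 35 has no background beside it. NIP1-1 had the widest gap: its shoot change was 1.82 and its root difference -2.33 (rml1 minus wild type, log2), so the root value minus the shoot value was -4.15. For PIP2-6 the shoot change was -0.48 and the root difference 1.22, a gap of 1.70. TIP1-2 had 0.20 in shoots and -1.16 in the root (gap -1.36), and SIP2-1 had 0.52 and -0.48 in the same order (gap -1.0). PIP1-2 had 0.26 in shoots and -0.70 in the root (gap -0.97). NIP4-1 had -0.52 in shoots and 0.29 in the root (gap 0.81), at levels below the median of every array. PIP2-6, NIP1-1, NIP4-1 and SIP2-1 passed the shoot test, and TIP1-2 and PIP1-2 did not.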

How the results depend on the processing

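With each shoot array left out, 9 to 14 aquaporins fell and 3 to 4 rose in rml1 shoots, and 12 of 18 calls held in every such fit (9 falls and 3 rises). The adjusted p-values of the other 6 stand beside their values. Of all loci, 15.1% to 21.7% were called with 1 array left out. Requiring 2-fold as well left 4 falls and 2 rises. Falls and rises numbered 13 and 3 with quantile normalization, 12 and 4 with centring, 13 and 5 above the median level (29 members tested, 62.1% called beside 49.9% of loci in that fit), 14 and 6 with trended, robust moderation, 13 and 4 with array weights, 14 and 4 with all 8 arrays, and 10 and 4 with suffix 0 entries (30 members). In the same order, 23.2%, 23.5%, 49.9%, 24.9%, 26.2%, 23.9% and 21% of the loci tested were called. PIP1-2 (adjusted p = 0.0432) and TIP1-2 (0.0101) passed in limma with trended, robust moderation, and NIP1-2 (0.0492) with the filter. With the replicate number as a block, which the arrays gave no reason to pair, 12 fell and 3 rose, beside 17.3% of loci called. The sign of NIP3-1 in shoots turned with quantile normalization (0.0565) and ranged from -0.0733 to 0.0489 with single arrays left out. That of SIP1-2 turned with quantile normalization (-0.0659) and ranged from -0.0913 to 0.198 with single arrays left out, and neither passed in any of these fits. At 1.5-fold, 4 members were higher in the rml1 root and at 3-fold 0, while 20 and 13 were lower. In the wild type root, 4 members were lower than in shoots with quantile normalization and 4 with centring, against 2, and 7 at 1.5-fold. In the rml1 root, 11 were higher than in rml1 shoots at 1.5-fold, and 5 were lower at 3-fold. The cause of these shifts was not tested, beyond the threshold itself. Shares of all loci at 1.5-fold and 3-fold are not given here, so those counts have no background beside them. Single root arrays leave the root and organ values without an error, and 5 members lay below the median of every array.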
